A study of Mus with 6 samples.

Results

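The genes described here encode collagen chains and the enzymes and chaperones that modify, fold, trim and cross-link them, in cultured knee chondrocytes with and without Sirt6. Members were all genes whose symbol has the form of a collagen chain (a type number and a chain number), except Col11a1 and Col9a3, together with the prolyl and lysyl hydroxylases, the collagen galactosyltransferases, collagen chaperones and export factors, the proteinases that remove propeptides and their enhancers, and the lysyl oxidases. Of 11659 genes with counts, 26 were members, made up of 4 fibrillar collagens, 4 basement-membrane collagens, 5 other collagens and 13 collagen-processing genes, and all 26 had enough counts to be tested. RNA came from first-passage chondrocytes of the knee cartilage of 12-week-old C57BL/6J mice, with 3 samples labelled wild type (WT) and 3 labelled Sirt6 cKO. According to the methods, Sirt6 cKO mice carried Col2a1-CreERT2 and 2 floxed Sirt6 alleles (Sirt6 flox/flox), so that recombination needs tamoxifen and is limited to cells that use the Col2a1 promoter, and male mice were used. Whether the WT mice carried floxed alleles or Cre, when tamoxifen was given for these samples, and whether cells of several mice were pooled are not given in the sources used here. The study describes the samples as chondrocytes of control and Sirt6 KO mice, 3 of each, without saying that each sample was 1 mouse, so p-values measure the spread between these samples, which may be technical.

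Collagens are trimers of alpha chains wound into a triple helix. In the endoplasmic reticulum, prolyl and lysyl residues of the new chains are hydroxylated, some hydroxylysines are glycosylated, and chaperones hold the helix together until it is exported. Outside the cell, proteinases cut off the propeptides of fibrillar collagens, and lysyl oxidases start the cross-links that fix the fibril. Cartilage is built mainly on type II collagen with types IX and XI, whereas type I collagen is the fibrillar collagen of bone, tendon and fibrous tissue, and it is known to rise when chondrocytes are grown in monolayer. Type IV collagen forms the network of basement membranes, and type VI collagen forms beaded filaments, which in cartilage surround the single chondrocyte. Serpinh1, Lox, Bmp1, Mia3, Col11a2, Col7a1, Col8a1, Col13a1, P3h3, P4ha3, Loxl4 and Adamts14, 12 genes that fit the names of the members, lie in stretches where a row's exon length did not relate best to its own count, and were left out. Another 32 such genes, among them Col2a1, Col3a1, Col5a1, Col5a2, Col9a1 and Col10a1, were not analysed here.

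Each sample held 25726958 to 30156935 counts in total. Sirt6 itself was counted 10273, 9963 and 10943 times in WT and 1056, 862 and 660 times in Sirt6 cKO samples. WT replicate 1 stood somewhat apart, since the correlation of its log2 counts across genes with WT replicates 2 and 3 was 0.972 and 0.974, against 0.996 between those. Among 4 chondrocyte markers that could be read, Sox9, the transcription factor that defines the lineage, was well counted in all samples (4917 to 11059 raw counts), while Comp, a cartilage matrix protein, reached 14 to 28 raw counts per WT sample and 182 to 322 per Sirt6 cKO sample. None of the 4 was at 0 in every sample, and 3 were called higher in Sirt6 cKO samples (Comp, Ucma and Col11a1). Sox9 rose by 0.62 on the log2 scale, under the fold threshold. The summed level of the 4 ranged from 194 to 211 CPM (counts scaled to a common library total) in WT and from 388 to 489 in Sirt6 cKO samples. Without the collagen Col11a1 the sum was 186 to 205 CPM in WT and 267 to 383 in Sirt6 cKO samples. The defining cartilage genes Acan and Col2a1 were not analysed here, so the cell label was checked on few genes. Of 8 synovial fibroblast markers that could be read, 4 were called higher (Dcn, Lum, Pdgfra and the member Col1a1), and without Col1a1 their summed level was 1171 to 1292 CPM in WT and 3233 to 3667 in Sirt6 cKO samples, with none at 0 in every sample. Cd34, also on that list, fell by 0.54 on the log2 scale (edgeR adjusted p = 0.00536), while Pdpn (-0.36), Has1 (-0.26) and Thy1 (0.09) did not pass. The share of fibroblasts and its part in the collagen values below was not tested, and in bulk RNA a change in the number of cells of a type cannot be told apart from a change of RNA per cell. Summed levels went from 713 to 904 CPM in WT up to 1119 to 1169 in Sirt6 cKO samples for 2 hypertrophic chondrocyte markers (Spp1 and Runx2), and from 528 to 876 up to 858 to 1026 for 3 smooth muscle markers (Des, Tagln and Acta2). Of these Spp1, Des and Acta2 rose, each under the fold threshold, and Runx2 (0.28) and Tagln (-0.38) did not pass. Cd68, the only macrophage marker read, was at most 1.73 CPM in every sample.

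Levels are given as CPM per kilobase of exon, after TMM scaling for library size and composition, so that genes of different length can be set side by side. Genotypes were compared with edgeR's quasi-likelihood test over all 11246 genes with enough counts, and p-values were adjusted over all of them by the Benjamini-Hochberg method. Log2 fold changes are Sirt6 cKO over WT, with their standard error (SE). A gene is said to have risen or fallen where the adjusted p was under 0.05, and is called where in addition the fold change was over 2 or under 0.5. Over all genes tested, 8.72% were called higher and 7.15% lower in Sirt6 cKO samples, and with no fold threshold 22.5% rose and 24.3% fell. All Sirt6 cKO samples lay above all WT samples in 30.2% of the genes tested and below them in 30.6%.

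Transcripts of the 13 collagen genes were 2.90 times as abundant in Sirt6 cKO as in WT chondrocytes, at a summed level of 5063 ± 312 (SD, n = 3) against 1744 ± 11.1 (SD, n = 3). Of these genes 6 were called higher and none lower by edgeR, against 8.72% and 7.15% of all genes tested. With no fold threshold 11 rose and none fell, against 22.5% and 24.3%. The median log2 fold change of the collagen genes was 0.94, against 0.0021 over all genes tested. Fibrillar collagens carried most of the difference. Their 4 genes held 0.996%, 1.09% and 1.08% of all counts in the 3 WT samples and 3.94%, 3.90% and 3.38% in the 3 Sirt6 cKO samples. Every Sirt6 cKO sample lay above every WT sample. The 4 basement-membrane genes held 0.106% to 0.116% of counts in WT and 0.142% to 0.147% in Sirt6 cKO samples, a much smaller step, and the 5 other collagens held 0.254% to 0.294% and 0.669% to 0.708%. On the level per length, the sum in Sirt6 cKO over that in WT samples was 3.20-fold for the fibrillar class, 1.25-fold for the basement-membrane class, 2.73-fold for the other collagens and 1.31-fold for the 13 processing genes. These sums are descriptions with no test.

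**Figure D1:**
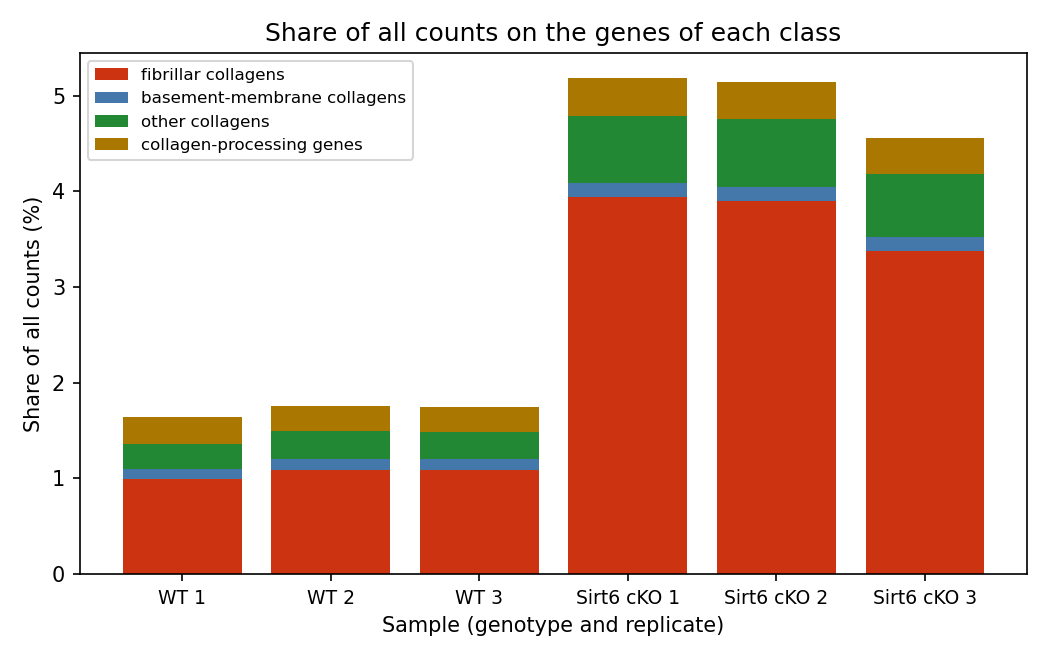
Share of all counts, in percent, that fell on the genes of each class, as stacked bars for the 3 WT and 3 Sirt6 cKO samples. The fibrillar part was 0.996% to 1.09% in WT and 3.38% to 3.94% in Sirt6 cKO samples, and the basement-membrane part was at most 0.147% in all 6.

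Type I collagen is a trimer of 2 chains from Col1a1 and 1 chain from Col1a2. Col1a2 (ENSMUSG00000029661, chromosome 6 from 4504814 to 4541543, positions as in the table, which match GRCm38) took 156087, 200270 and 201991 raw counts in the WT samples and 809686, 830838 and 706377 in those of Sirt6 cKO. Per length its level was 534, 559 and 550.1 in the WT samples and 2284, 2277 and 1965 in the Sirt6 cKO samples. The WT samples lay close together and far under the Sirt6 cKO samples, of which replicate 3 was the lowest. The log2 fold change of Col1a2 was 1.99 (SE 0.12, edgeR adjusted p = 1e-05), and its level moved from rank 22 to rank 3 among 6617 tested genes with matching labels. Col1a1 (ENSMUSG00000001506, chromosome 11 from 94936224 to 94953042) stood at 625, 598 and 620.3 in WT and at 1649, 1562 and 1441 in Sirt6 cKO samples, again without overlap and with Sirt6 cKO replicate 3 lowest. Its log2 fold change was 1.34 (SE 0.11, edgeR adjusted p = 5.28e-05), smaller than that of its partner. Per length Col1a1 was thus the higher of the pair in WT and Col1a2 in Sirt6 cKO samples, an order that rests on the exon lengths of the table (6563 bases for Col1a1 and 12136 for Col1a2). In raw counts Col1a2 was the higher in all 6 samples, with 98722, 115797 and 123176 counts for Col1a1 in WT. Both genes together made up 72.3% to 73.0% of the counts on the 13 collagen genes in WT samples and 80.3% to 81.8% in Sirt6 cKO samples.

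The other fibrillar collagens were far lower. Col5a3 (ENSMUSG00000004098, chromosome 9 from 20770050 to 20815067) encodes a chain of type V collagen, which is found inside type I fibrils and limits their width. It stood at 7.21, 6.84 and 6.56 in WT and at 17.3, 16.1 and 15.2 in Sirt6 cKO samples, with no overlap. It was called higher (log2 fold change 1.24, SE 0.13, edgeR adjusted p = 0.000128). Col27a1, a fibrillar collagen known from cartilage, was near the bottom of the range, at 1.17, 1.01 and 1.17 in WT and 2.05, 2.26 and 2.11 in the Sirt6 cKO samples. These values rest on 357 to 449 raw counts in WT, and they separated the genotypes fully. The log2 fold change of Col27a1, 0.94 (SE 0.14, edgeR adjusted p = 0.00107), was under the fold threshold, and with upper-quartile normalization it was 1.02 and over it. In all, 3 of 4 fibrillar genes were called higher and all 4 rose, against 8.72% and 22.5% of all genes tested.

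Basement-membrane collagens had 0 of 4 genes called by edgeR, DESeq2 or limma-voom, 2 risen and none fallen. With 8.72% of all genes called higher and 7.15% lower, 0 of 4 is near the background, and the difference from the other classes was not tested. At an unadjusted p under 0.05 the counts were also 2 and 0. Col4a1 and Col4a2 encode the chains of the common type IV collagen and lie head to head on chromosome 8, on opposite strands, with 22 bases of overlap in the table. Col4a1 (ENSMUSG00000031502, chromosome 8 from 11198423 to 11312826) stood at 85.1, 85.6 and 86.8 in WT and at 81.5, 81.8 and 79.1 in Sirt6 cKO samples. The Sirt6 cKO samples were all slightly below the WT samples, as in 30.6% of all genes tested, but the log2 fold change was only -0.09 (SE 0.11, edgeR adjusted p = 0.528). Col4a2 (ENSMUSG00000031503, chromosome 8 from 11312805 to 11449287) stood at 60.4, 58.8 and 60.8 in WT and at 95.3, 91.5 and 94.0 in Sirt6 cKO samples. It rose by 0.64 on the log2 scale (SE 0.11, edgeR adjusted p = 0.00181), and the spread within each genotype was small beside that step.

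Col4a6, whose chain belongs to a rarer type IV network, rose from 16.6, 17.7 and 17.7 in WT to 29.9, 29.9 and 26.8 in Sirt6 cKO samples. Its log2 fold change was 0.73 (SE 0.12, edgeR adjusted p = 0.00153). Col18a1, the precursor of endostatin, was low, at 3.41, 2.32 and 2.67 in WT and 3.36, 3.48 and 3.69 in the Sirt6 cKO samples. Here WT replicate 1 lay among the Sirt6 cKO samples, and the log2 fold change of 0.33 (SE 0.17) did not pass (edgeR adjusted p = 0.145). Without WT replicate 1 the value for Col18a1 was 0.49 (edgeR adjusted p = 0.0102), and without WT replicate 2 it was 0.22 (edgeR adjusted p = 0.382).

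Among the other collagens, the 3 genes of type VI collagen rose to very different degrees. Col6a1 (ENSMUSG00000001119, chromosome 10 from 76708792 to 76726168) stood at 192, 204 and 192 in WT and at 690.3, 679.5 and 664 in Sirt6 cKO samples (log2 fold change 1.79, SE 0.11, edgeR adjusted p = 1.07e-05). Its rank per length went from 115 to 15. Col6a2 (ENSMUSG00000020241, chromosome 10 from 76595762 to 76623630), which lies 85161 bases away on the same strand, stood at 90.7, 90.3 and 83.2 in WT and at 256, 243 and 247 in Sirt6 cKO samples (log2 fold change 1.50, SE 0.11, edgeR adjusted p = 2.6e-05). Both were called, and in both every Sirt6 cKO sample lay above every WT sample, as in 30.2% of all genes tested. Col18a1, the next member along the chromosome at 326009 bases from Col6a1, did not pass. Col6a3 (ENSMUSG00000048126, chromosome 1 from 90765923 to 90843971), the third and longest chain of the trimer, stood at 66.0, 80.1 and 80.9 in WT and at 102, 107 and 96.9 in Sirt6 cKO samples. Its rise of 0.43 (SE 0.13, edgeR adjusted p = 0.022) was well under the fold threshold, and leaving out Sirt6 cKO replicate 1 or 2 took the edgeR adjusted p to 0.0769 and 0.093. The row of Col6a3 lies 9 rows from the end of the part where counts and labels line up. Its mean of 30846 raw counts was the highest within 5 rows on either side, where the next was 9227.

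Of the fibril-associated collagens, which bind to the surface of fibrils and have breaks in their helix, both rose. Col16a1 stood at 47.4, 43.9 and 44.5 in WT and at 84.5, 79.3 and 70.0 in Sirt6 cKO samples (log2 fold change 0.78, SE 0.12, edgeR adjusted p = 0.00128). Col20a1 (ENSMUSG00000016356, chromosome 2 from 180986535 to 181017540) was much lower and noisier, with raw counts of 191, 306 and 377 for WT and of 659, 827 and 645 for Sirt6 cKO samples. It was called higher at a log2 fold change of 1.22 (SE 0.20, edgeR adjusted p = 0.00152). With Col6a1 and Col6a2 this made 3 of 5 genes called higher in the class, and all 5 rose, against 8.72% and 22.5% of all genes tested.

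**Figure D2:**
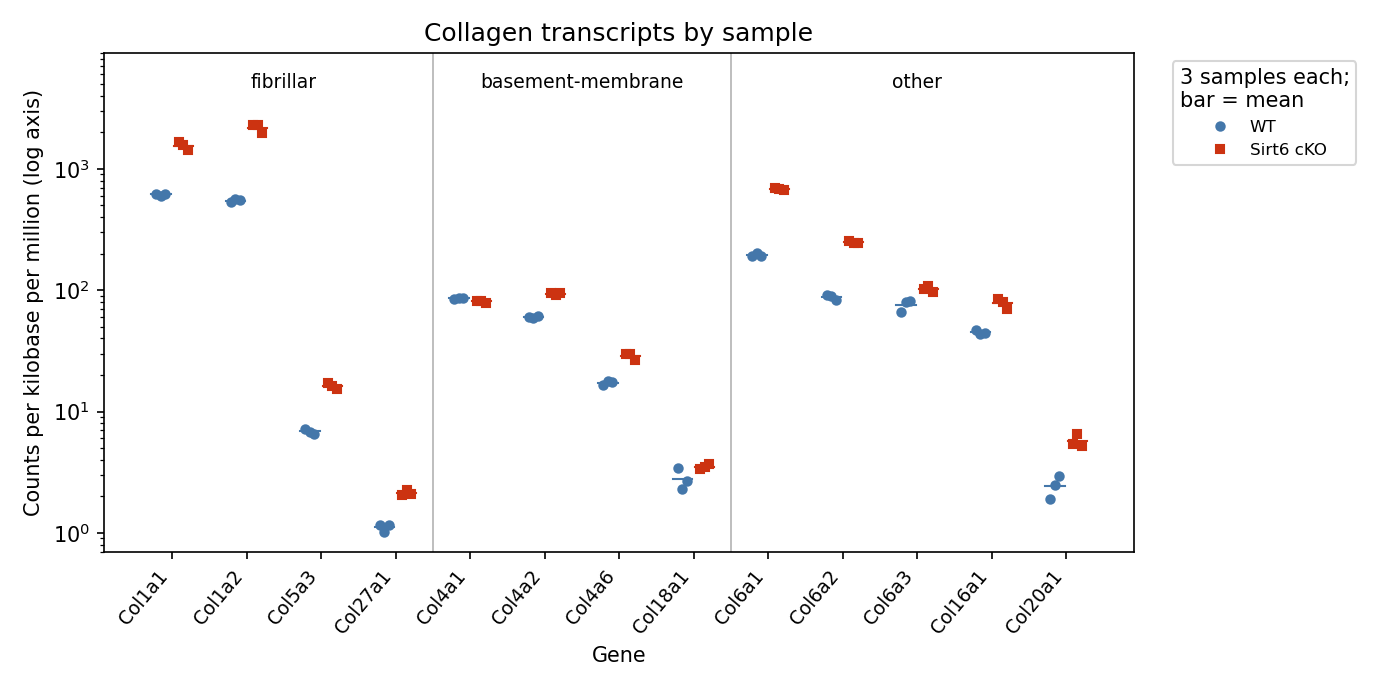
Level of each of the 13 collagen genes in each sample, in CPM per kilobase on a log axis, with 3 points and a bar for the mean in each genotype. Points of Col1a1 and Col1a2 moved up without overlap of the genotypes, while Col4a1 stayed between 79.1 and 86.8 in all 6 samples.

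Chains that assemble with each other were then compared within each sample, where library scaling has no effect. The ratio of Col1a1 to Col1a2, per length, was 1.17, 1.07 and 1.13 in WT and 0.722, 0.686 and 0.734 in the Sirt6 cKO samples, a difference of -0.65 on the log2 scale. For Col4a1 to Col4a2 it was 1.41, 1.46 and 1.43 in WT and 0.856, 0.894 and 0.841 in the Sirt6 cKO samples, a difference of -0.73. In neither pair did the genotypes overlap. Col4a1 was above Col4a2 in all WT samples and below it in all Sirt6 cKO samples, in raw counts as well as per length, whereas for type I collagen the even value was crossed per length and not in raw counts. The ratio of Col6a1 to Col6a2 went from 2.12, 2.26 and 2.31 to 2.70, 2.80 and 2.69. That difference of 0.29 was smaller in size than for Col1a1 to Col1a2 or Col4a1 to Col4a2. Col6a3 fell behind, with a ratio to Col6a1 of 0.344, 0.392 and 0.421 in WT and 0.147, 0.158 and 0.146 in the Sirt6 cKO samples, a difference of -1.35. Within a genotype the log2 ratios of these 4 pairs had an SD of 0.02 to 0.15. For each of them the exact two-sided permutation test gave p = 0.1, the smallest that 3 samples against 3 allow, and p = 0.12 after adjustment over the 6 pairs compared, so this test cannot bring them under 0.05 with these samples.

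**Figure D3:**
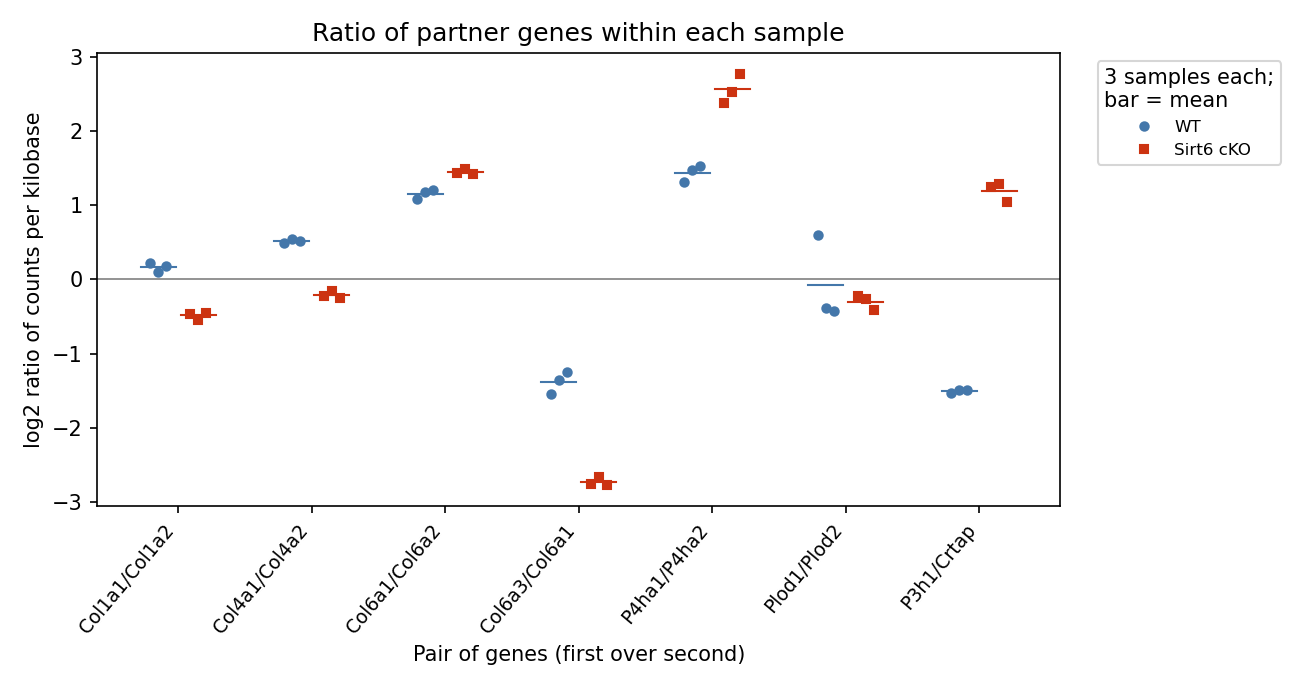
The log2 ratio of counts per kilobase of partner genes within each sample, with 3 points and a bar for the mean in each genotype, and a line at 0 where both genes are even. Genotypes are apart for all pairs but Plod1/Plod2, where WT replicate 1 lies above all other samples. The pair P3h1/Crtap was added after its values were seen.

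The processing genes held members that rose and members that fell. Of the 13 genes, 2 were called higher and none lower by edgeR, against 8.72% and 7.15% of all genes tested. At the adjusted p alone 7 rose and 3 fell, against 22.5% and 24.3%, so the share that fell was near that of all genes. The median log2 fold change of the processing genes was 0.50. P4ha1 and P4ha2 encode alternative catalytic subunits of the prolyl 4-hydroxylase that stabilizes the helix. P4ha1 rose, from 38.6, 39.5 and 41.7 in WT to 60.8, 63.3 and 67.4 in Sirt6 cKO samples (log2 fold change 0.68, SE 0.12, edgeR adjusted p = 0.00206). P4ha2 fell, from 15.6, 14.2 and 14.5 to 11.7, 11.0 and 9.86 (log2 fold change -0.45, SE 0.13, edgeR adjusted p = 0.0199). The drop in P4ha2 was no longer past the threshold in any of the 5 fits that left out a sample other than WT replicate 1, where the edgeR adjusted p was at most 0.0649. The ratio of P4ha1 to P4ha2 was 2.47, 2.77 and 2.89 in WT and 5.21, 5.77 and 6.83 in the Sirt6 cKO samples (exact two-sided permutation test, p = 0.1, and 0.12 after adjustment).

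P3h1 and Crtap encode 2 partners of one complex, which adds a 3-hydroxyl to a proline of fibrillar collagen chains and works as a chaperone together with the cyclophilin made from Ppib. They went opposite ways. P3h1 (ENSMUSG00000028641, chromosome 4 from 119232915 to 119248975) stood at 18.7, 15.2 and 16.3 in WT and at 60.0, 56.5 and 48.0 in Sirt6 cKO samples. It was called higher, at a log2 fold change of 1.71 (SE 0.15, edgeR adjusted p = 5.43e-05). Crtap (ENSMUSG00000032431, chromosome 9 from 114375134 to 114390675) stood at 54.2, 42.8 and 45.7 in WT and at 25.4, 23.2 and 23.3 in Sirt6 cKO samples, so that all Sirt6 cKO samples were the lower ones. It fell by 0.99 on the log2 scale (SE 0.14, edgeR adjusted p = 0.000739), just short of the fold threshold, and it was called lower without WT replicate 2 (-1.05), WT replicate 3 (-1.01) or Sirt6 cKO replicate 1 (-1.03). Ppib had a log2 fold change of 0.03 (edgeR adjusted p = 0.907). Per length, P3h1 stood at 0.345, 0.354 and 0.357 of Crtap in WT and at 2.37, 2.43 and 2.06 times Crtap in Sirt6 cKO samples, a comparison chosen after the values were seen and given with no test. P3h4, a non-catalytic relative of P3h1, stood at 79.6, 58.4 and 54.7 in WT and at 101, 95.9 and 82.5 in Sirt6 cKO samples. Its log2 fold change of 0.54 (SE 0.17, edgeR adjusted p = 0.03) no longer passed in 4 of the fits that left out 1 sample, where the adjusted p reached 0.112 without Sirt6 cKO replicate 1.

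Lysyl hydroxylases make the hydroxylysines used for glycosylation and cross-linking. Plod3, which can also glycosylate, fell from 100.3, 78.8 and 83.3 in WT to 55.8, 51.6 and 46.2 in Sirt6 cKO samples (log2 fold change -0.77, SE 0.14, edgeR adjusted p = 0.0026). Plod3 shares 941 bases with Znhit1, and whether the counting used strand is not given in the sources used here. Plod1 stood at 21.5, 18.8 and 18.1 in WT and at 25.5, 25.7 and 21.2 in Sirt6 cKO samples. The genotypes overlapped for Plod1, whose log2 fold change of 0.31 (SE 0.14) did not pass (edgeR adjusted p = 0.0939). Without WT replicate 1 Plod1 passed at 0.39 (edgeR adjusted p = 0.0155), and it also passed without Sirt6 cKO replicate 3. Plod2, the hydroxylase of the telopeptides where cross-links form, stood at 14.3, 24.5 and 24.3 in WT and at 29.9, 30.7 and 28.3 in Sirt6 cKO samples. WT replicate 1 was far under the other WT samples, and the log2 fold change of 0.50 (SE 0.20) did not pass (edgeR adjusted p = 0.0748). With the replicate number as a block Plod2 passed, at 0.54 (edgeR adjusted p = 0.0267), and without WT replicate 1 it was 0.28 (edgeR adjusted p = 0.0237). The ratio of Plod1 to Plod2 overlapped between the genotypes (exact two-sided permutation test, p = 0.9). Colgalt1, a galactosyltransferase that acts on hydroxylysine, stood at 89.8, 75.5 and 78.0 in WT and at 84.6, 83.6 and 80.1 in Sirt6 cKO samples (log2 fold change 0.03, SE 0.12, edgeR adjusted p = 0.86).

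Fkbp10 encodes a prolyl isomerase of the endoplasmic reticulum that is needed for the cross-linking of type I collagen. It rose from 118, 89.0 and 91.5 in WT to 161, 153 and 158 in Sirt6 cKO samples (log2 fold change 0.66, SE 0.14, edgeR adjusted p = 0.00554). Fkbp10 lies head to head with P3h4 on chromosome 11 with 860 bases between them, and 2508 bases of it overlap the gene Nt5c3b.

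Among the processing genes that act outside the cell, the largest step was that of Adamts2, the proteinase that removes the amino-terminal propeptide of type I procollagen. Adamts2 (ENSMUSG00000036545, chromosome 11 from 50602084 to 50807573) stood at 11.0, 11.4 and 9.96 in WT and at 40.9, 42.1 and 44.0 in Sirt6 cKO samples. Its log2 fold change, 1.97 (SE 0.12, edgeR adjusted p = 1.1e-05), and that of Col1a2 were the highest of the 26 genes and lay within their SE of each other, and the order of the pair turned without WT replicate 1, WT replicate 2, Sirt6 cKO replicate 1 or Sirt6 cKO replicate 2. The rank of Adamts2 per length moved from 3525 to 847. Pcolce, which enhances removal of the carboxy-terminal propeptide, was the processing gene with the highest level, at 193, 172 and 168 in WT and 248, 247 and 238 in the Sirt6 cKO samples. Pcolce rose by 0.46 on the log2 scale (SE 0.11, edgeR adjusted p = 0.0108) and was past the threshold neither without WT replicate 3 (edgeR adjusted p = 0.0516) nor without Sirt6 cKO replicate 1 (edgeR adjusted p = 0.0549). It shares 1280 bases with Fbxo24. Loxl1, a lysyl oxidase best known for cross-linking elastin, rose from 97.9, 84.3 and 78.1 in WT to 130.0, 134 and 123 in Sirt6 cKO samples (log2 fold change 0.57, SE 0.13, edgeR adjusted p = 0.00707). For all 3 of these genes every Sirt6 cKO sample lay above every WT sample, as in 30.2% of all genes tested.

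**Figure D4:**
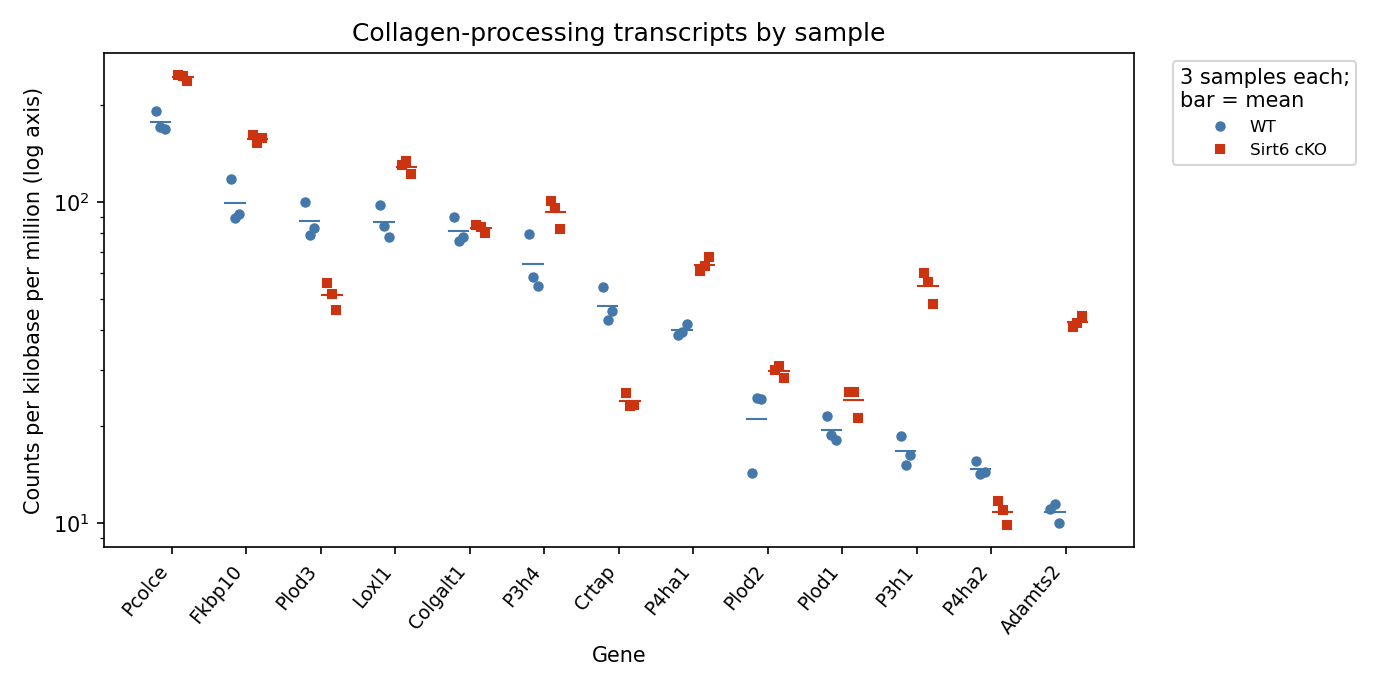
Level of each of the 13 collagen-processing genes in each sample, in CPM per kilobase on a log axis, with 3 points and a bar for the mean in each genotype. Adamts2 and P3h1 showed the widest upward gaps, and Crtap, Plod3 and P4ha2 lay lower in all 3 Sirt6 cKO samples.

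Across the 26 genes, 8 were called higher and none lower by edgeR's test, against 8.72% and 7.15% of all genes tested, and the adjusted p alone gave 18 that rose and 3 that fell. At an unadjusted p under 0.05 the counts were 19 and 3, and DESeq2 and limma-voom also called none lower. All Sirt6 cKO samples lay above all WT samples in 19 genes and below them in 4, and the same held for 30.2% and 30.6% of all genes tested. The 8 called genes were Col1a1, Col1a2, Col5a3, Col6a1, Col6a2, Col20a1, P3h1 and Adamts2. When the fold change itself was tested against 2 with edgeR's glmTreat, 6 of them passed, and Col5a3 and Col20a1 did not.

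**Figure D5:**
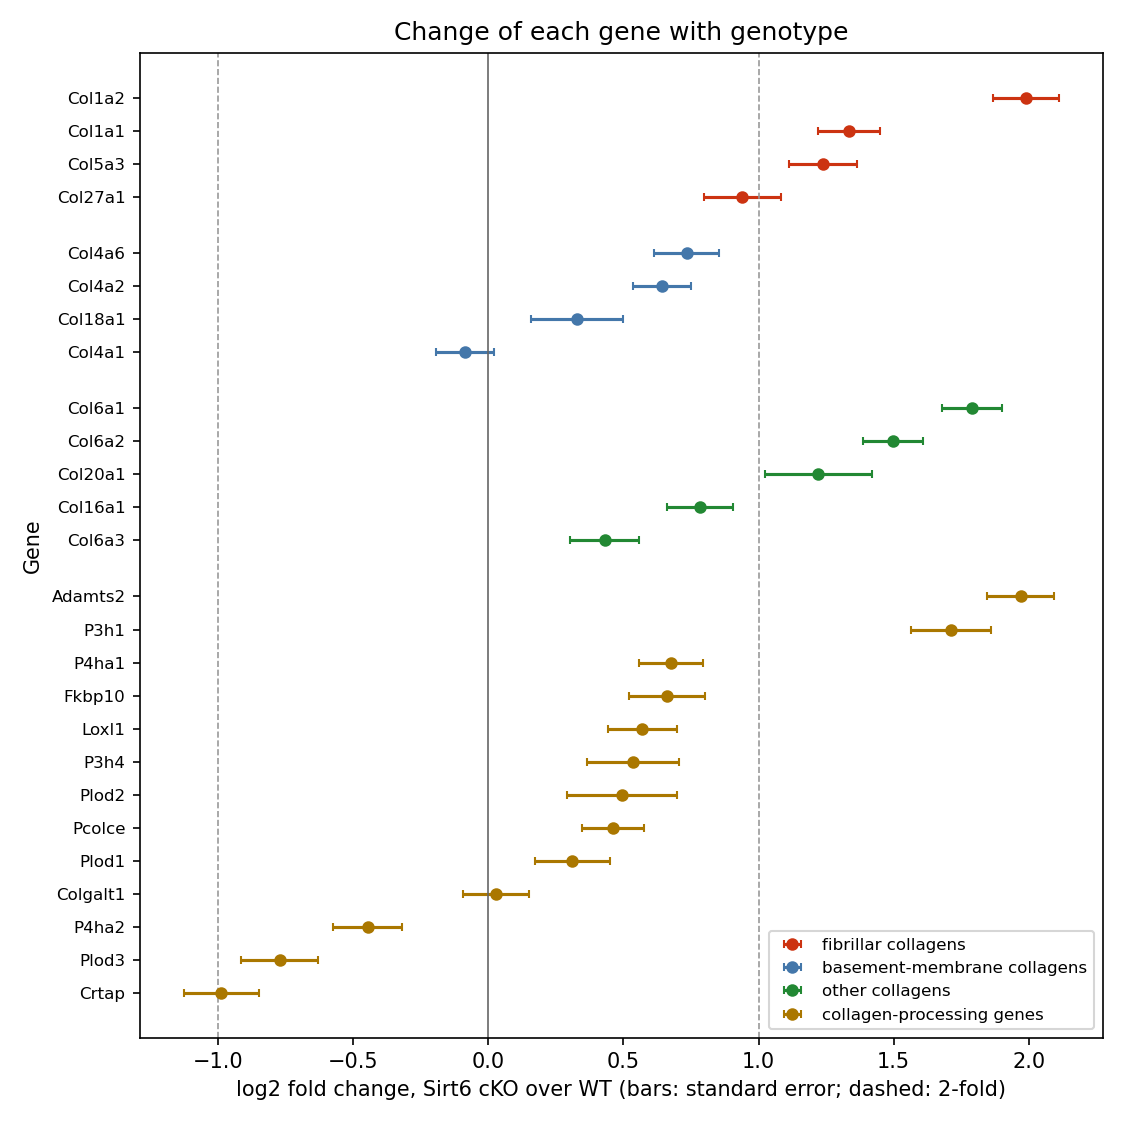
Log2 fold change of each gene, Sirt6 cKO over WT, with its standard error from edgeR, by class. Dashed lines mark a change of 2-fold. Values ran from -0.99 for Crtap to 1.99 for Col1a2, and the basement-membrane genes lay at 0.73 or lower.

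Of 47 other genes of collagen folding, secretion, binding, breakdown and fibril assembly, 23 could be tested. Of these, 6 were called higher and 1 lower, against 8.72% and 7.15% of all genes tested. At the adjusted p alone 8 rose and 4 fell, against 22.5% and 24.3% of all genes tested. The median log2 fold change of the 23 genes was 0.18. Folding partners had 1 of 8 genes called higher, near the 8.72% of all genes tested. It was Hsp90b1, a chaperone of the endoplasmic reticulum, with a log2 fold change of 1.19 (edgeR adjusted p = 0.002). Hspa5, the main chaperone of that compartment, rose by 0.60, and Pdia6, a disulfide isomerase, fell by 0.67, both under the fold threshold. Secretion genes had 2 of 7 called higher, against 8.72% of all genes tested. Both encode transcription factors that are known to drive genes of the secretory pathway and, for Creb3l1, type I collagen in bone. Creb3l2 stood at 91.7, 117 and 100.4 CPM in WT and 421, 434 and 368 in the Sirt6 cKO samples (log2 fold change 1.98, SE 0.14, edgeR adjusted p = 2.25e-05). Creb3l1 was much lower, at 6.06, 6.00 and 3.67 CPM in WT and 15.4, 16.2 and 22.3 in the Sirt6 cKO samples (log2 fold change 1.78, SE 0.25, edgeR adjusted p = 0.000667). In both genes every Sirt6 cKO sample lay above every WT sample, as in 30.2% of all genes tested. The coat proteins Sec24d and Sec31a did not pass, while Sec13 and the small GTPase gene Sar1b fell by 0.66 and 0.87 on the log2 scale.

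Of the receptors, the integrin subunit Itgb1 (-0.07) and the collagen receptor Ddr1 (-0.23) could be tested and neither passed. Mmp2, a gelatinase that cuts denatured collagen, was the only gene of the breakdown list that could be tested. It stood at 330.5, 312 and 303 CPM in WT and at 1448, 1479 and 1317 in Sirt6 cKO samples (log2 fold change 2.17, SE 0.12, edgeR adjusted p = 7.19e-06), larger than that of any of the 13 collagen genes described above. Among fibril partners, the small proteoglycan genes Dcn (3.36) and Lum were called higher and Bgn rose by 0.94. Lum was nearly absent from WT, with raw counts of 0, 4 and 4, and reached 257, 249 and 326 in Sirt6 cKO samples. Ecm1, a secreted matrix protein, was called lower, at 324, 295 and 285 CPM in WT and 103, 97.4 and 81.9 in the Sirt6 cKO samples, a log2 fold change of -1.68 (edgeR adjusted p = 4.28e-05).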

How the data were processed

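Chondrocyte RNA of 3 WT and 3 Sirt6 cKO samples was sequenced. The authors deposited raw counts of reads for each Ensembl gene in 1 table, together with exon positions and the total exon length, and applied no normalization. The submitters' processing notes name cutadapt, HISAT2 2.0.5 and StringTie, with no role given and with a human genome build, whereas the exon positions in the table are those of mouse. The counter and its strand setting are not given in the sources used here. Rows carry no symbol. They were named by position from RefSeq (GRCm38.p6) if the overlap came to 0.5 or more of the span of both genes joined, which named 10609 of 11659 rows. Some genes were not analysed here.

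Only rows whose gene number lies in stretches where counts and labels line up were read as members, which are 6623 rows. In these, exon length correlated with the count of its own row (Spearman's rho of 0.251 and 0.295 in the 2 stretches), and with the count of any row up to 5 rows away at no more than 0.041. Over the remaining rows the own row gave 0.359 and a row 3 rows away gave 0.463. Total counts were 25726958 to 30156935 per sample. Counting error is part of the spread between samples.

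Counts were compared with edgeR 4.0.16 in R 4.3.3 (filterByExpr, TMM, glmQLFit, glmQLFTest, genotype as the only term) over all rows. Standard errors were obtained by dividing the log2 fold change by the square root of F. The fit was tested on simulated counts. Chain ratios were compared by exact permutation tests. Alternatives were DESeq2 1.42.0, limma-voom (limma 3.58.1), other normalizations and filters, other thresholds, the replicate block and leaving out each sample. The members and lists were chosen with earlier results of these data known. Every member is given with its value in each sample. Of the other lists the genes called are named, along with some that were not. Deviations from the genotype mean correlated across genes between equally numbered WT and Sirt6 cKO samples (0.332, 0.114 and 0.166), so the number was used as a block in 1 alternative. These numbers are those of the sample titles, and no source says what they mark.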

Additional observations from a re-analysis of the deposited data

How the results depend on the processing

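The same 8 genes were called higher in each of the 6 fits that left out 1 sample and with DESeq2, limma-voom, RLE factors, total counts, both other filters and the replicate block. Upper-quartile normalization added Col27a1 (1.02), and glmTreat called 6. With no fold threshold the genes higher were 4 fibrillar, 2 basement-membrane, 5 other collagens and 7 processing genes, and 3 processing genes were lower. Between 0 and 1 processing genes were called lower when 1 sample was left out, the 1 being Crtap. The direction of 25 of the 26 genes was the same in 14 alternatives, and the value of Colgalt1, 0.03 in the full set, ranged from -0.0089 (without WT replicate 2) to 0.11 when 1 sample was left out. The block by sample number, whose meaning no source gives, left the 8 called genes the same. At the adjusted p alone the block added Plod2 (0.54, edgeR adjusted p = 0.0267). It cannot move a mean difference of chain ratios. Without WT replicate 1 the difference in the ratio of Plod1 to Plod2 turned from -0.23 to 0.10. DESeq2 and upper-quartile normalization also passed Plod2, and scaling to total counts alone passed Plod1. With that last scaling, the mean log2 difference in summed level was 0.37 for basement-membrane and 1.50 for other collagens, against 0.32 and 1.45 with TMM. Scaling moved the median of all genes by at most 0.08.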

Other observations

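Sirt6 cKO replicate 3 was the lowest of its genotype in 18 of the 26 genes, among them Col1a1, Col1a2 and Col5a3, while WT replicate 1 was the highest WT sample in 10 of the 13 processing genes. The median coefficient of variation over the WT samples was 2.64% for basement-membrane, 3.54% for fibrillar, 4.83% for other collagens and 10.8% for processing genes, and over the Sirt6 cKO samples it was 3.41%, 6.62%, 5.15% and 5.04%. Within the basement-membrane class Col18a1 had the highest value over the WT samples, far above the others. Differences between classes were not tested.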
